A study of Mus musculus with 6 samples.

Results

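Transcripts of the small subunit processome and the later 40S assembly factors were examined in mouse embryonic stem cells depleted of Rsl24d1. The members were taken by gene symbol from a list of 52 factors, all 52 of which were found among the 22332 symbols of the deposited table, and all 52 passed the filter on low counts. The cells were CGR8, 1 mouse embryonic stem cell line, grown on gelatin in DMEM with 10% fetal bovine serum and LIF, the cytokine that keeps such cells pluripotent. They had been transfected for 48 hours with a pool of siRNAs against Rsl24d1 (siRSL24D1, 3 libraries) or a non-targeting siRNA pool (siCtrl, 3 libraries), so both groups carried siRNA, and total RNA was sequenced after removal of ribosomal RNA. The series calls the libraries independent triplicates, and nothing in the sources used here says whether that means separate cultures. The p-values set each group difference against the variation between these libraries, and may not carry over to other cultures.

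The small ribosomal subunit is built on a long precursor RNA in the nucleolus. The U3 snoRNA and several protein modules, named UTP-A, UTP-B, UTP-C and Mpp10, join the precursor in order and form the small subunit processome, in which the 18S sequence is folded, modified and cut. The resulting particle leaves for the cytoplasm, where a later set of factors, among them the RIO kinases and the endonuclease Nob1, finishes the 40S subunit. Dividing cells such as embryonic stem cells make ribosomes at a high rate. Rsl24d1 itself acts on the other subunit, as an assembly factor of the 60S. The series names ribosome production and pluripotency as its subject, and the comparison here asks how transcripts of the 40S branch differ when a 60S factor is reduced.

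More factors of the 40S branch rose than fell in siRSL24D1 cells, by small amounts. Of the 52 members, 25 rose, 3 fell (Utp14a, Imp3 and Dimt1) and 24 did not pass the test (edgeR quasi-likelihood test, Benjamini-Hochberg adjusted p under 0.05 over all 15084 genes tested). Of the members, 48.1% rose and 5.77% fell, against 21.2% and 20.0% of all genes tested (41.2% in either direction). The median log2 fold change was 0.15 over the members and 0.02 over all genes, and 46 of 52 members lay above 0, as did 7847 of all 15084 genes. No member reached a 2-fold change, which 4.19% of all genes tested reached while passing the test; the member values ran from -0.28 for Utp14a to 0.52 for Utp20. In 32 members all 3 siRSL24D1 libraries lay above all 3 siCtrl libraries, and in 3 members all lay below, against 26.8% and 26.2% of all genes. The 25 members that rose and the 3 that fell all had groups that did not overlap. Members shared the same libraries, so these counts describe 1 experiment and are not separate observations of it.

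**Figure D1:**
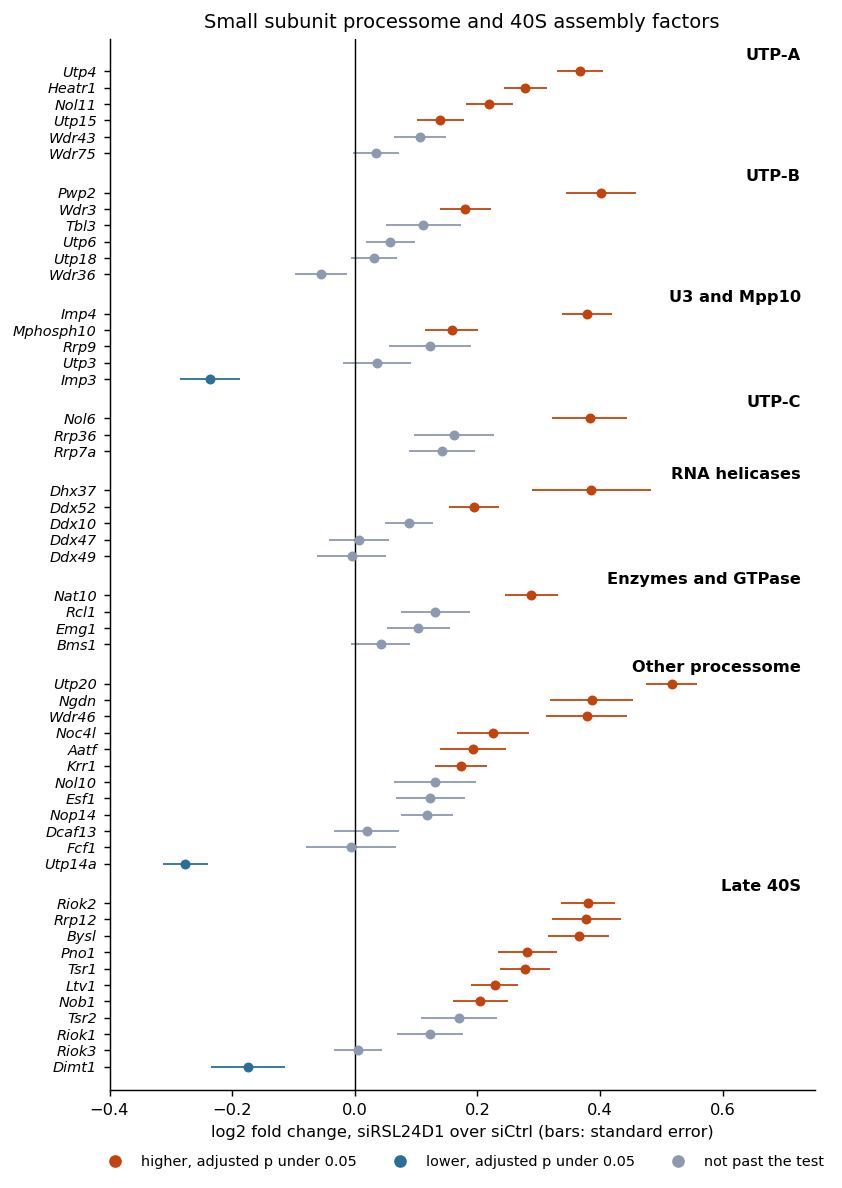
Log2 fold change of each of the 52 members, siRSL24D1 over siCtrl, on the horizontal axis, grouped by role; points are edgeR estimates and bars their standard errors over 3 libraries a group. Members that passed the test are coloured, 25 higher and 3 lower, and none lies beyond 0.52 or below -0.28.

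The knockdown was read from Rsl24d1 itself, at 53.8, 55.6 and 52.1 CPM in the siRSL24D1 libraries and 99.4, 102.7 and 97.9 CPM in the siCtrl libraries (log2 fold change -0.89, SE 0.04, edgeR adjusted p = 2.02e-05). Levels here are library-size-normalised counts (CPM) after TMM scaling. The 6 libraries summed to between 30943635 and 35214000 estimated counts, and the members had between 630 and 13565 estimated counts in a library. The 9 stem cell markers that were checked were all expressed, at a summed 2619 to 2715 CPM in siRSL24D1 and 2998 to 3331 CPM in siCtrl over full library totals; 1 rose and 5 fell. Summed trophoblast markers lay at 1259 to 1502 CPM in siRSL24D1 and 960.2 to 1003 CPM in siCtrl, nearly all of it Krt8, a simple keratin. Of the 5 trophoblast markers tested 2 rose and 1 fell: on the TMM scale Krt8 was at 1305 and 919.6 CPM and Cdx2 at 5.09 and 1.69 CPM in siRSL24D1 and siCtrl, while Krt7 was at 22.5 and 37.7 CPM. Summed neuroectoderm markers lay at 329 to 389.6 CPM in siRSL24D1 and 232 to 242 CPM in siCtrl, with 4 of 6 higher and 0 lower. The sums of fibroblast markers (123 to 149 and 125 to 159 CPM, 1 of 7 tested higher and 2 lower) and endoderm markers (17.4 to 19.0 and 17.1 to 19.6 CPM, 2 of 5 tested higher and 1 lower) overlapped between the groups. No marker of any list was at 0 in all 6 libraries. The part of these markers in the results below was not tested, and in bulk RNA fewer cells of a type and less RNA per cell cannot be told apart.

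A library in each group stood apart from its replicates. The squared difference in counts relative to sampling noise averaged 4.15 per gene between siRSL24D1 1 and siRSL24D1 3 but 12.2 and 14.9 for the pairs with siRSL24D1 2; it was 2.68 between siCtrl 1 and siCtrl 2 but 18.6 and 14.1 for the pairs with siCtrl 3. These libraries lay at opposite ends for the members. Of the 52 members, 37 had their highest siRSL24D1 value in siRSL24D1 2, and 40 had their lowest siCtrl value in siCtrl 3, against 40.8% and 40.5% of all genes. Relative to the mean siCtrl level, the median member was at 0.11, 0.22 and 0.15 on the log2 scale in siRSL24D1 1, 2 and 3, and at 0.02, 0.02 and -0.04 in siCtrl 1, 2 and 3. When siRSL24D1 2 and siCtrl 3 were both left out, a comparison added after seeing the data, 26 members rose and 5 fell, and the median log2 fold change was 0.095. Calls over all genes also increased in that comparison, to 3986 higher and 4008 lower, against 3191 and 3021 with all 6 libraries. All 25 that had risen and all 3 that had fallen kept their call; Nol10 was added to the rises, at 0.21, and Wdr36 and Fcf1 to the falls, at -0.12 and -0.15.

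**Figure D2:**
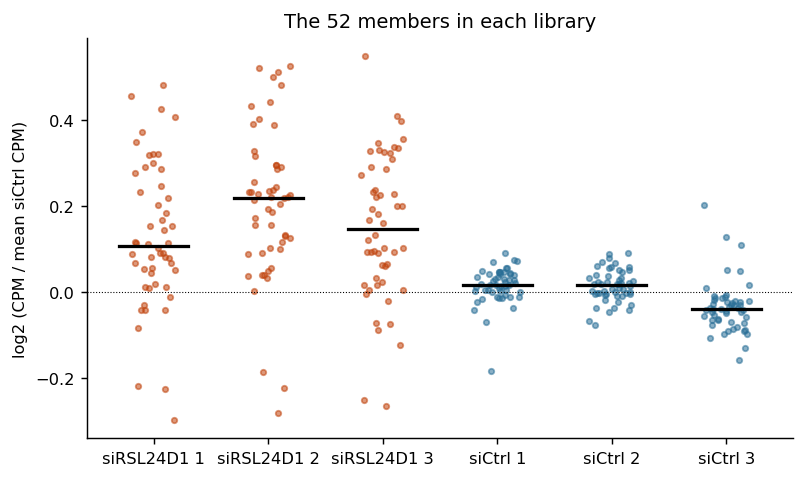
Level of the 52 members in each library, as the log2 ratio to the member's mean siCtrl level (vertical axis); each point is a member and the black line the median of the library. The medians of siRSL24D1 1, 2 and 3 are 0.11, 0.22 and 0.15 and those of siCtrl 1, 2 and 3 are 0.02, 0.02 and -0.04; siCtrl points lie near 0 because their own mean is the divisor.

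Added up, the members took 5669, 5957 and 5757 CPM in the siRSL24D1 libraries and 5208, 5188 and 5032 CPM in the siCtrl libraries. All siRSL24D1 sums lay above all siCtrl sums, and the ratio of the means was 1.13 with TMM scaling, 1.12 with DESeq2 size factors and 1.15 with library totals.

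Promoters are shown for the 2 largest rises and the 2 largest falls among called members with a window, so that the motif matches counted here can be seen in place. Windows run from 250 bases before to 50 bases after the RefSeq transcript start (GRCm38.p6) and were at hand for 44 members. Capitals mark matches on either strand to the E-box CACGTG, the core GCATGC of the NRF1 motif and the ETS motif CCGGAAG (matches may overlap). The windows are those of Utp20 (chr10:88826765-88827064, minus strand) and Pwp2 (chr10:78185100-78185399, minus strand), which rose, and Utp14a (chrX:48256684-48256983, plus strand) and Imp3 (chr9:56937250-56937549, plus strand), which fell.
Utp20: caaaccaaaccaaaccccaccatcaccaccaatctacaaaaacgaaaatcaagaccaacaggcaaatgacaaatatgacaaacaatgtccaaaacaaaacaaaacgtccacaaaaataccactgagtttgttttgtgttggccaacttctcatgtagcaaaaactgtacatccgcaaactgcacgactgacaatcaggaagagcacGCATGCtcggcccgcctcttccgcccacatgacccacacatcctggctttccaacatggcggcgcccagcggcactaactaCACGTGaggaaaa
Pwp2: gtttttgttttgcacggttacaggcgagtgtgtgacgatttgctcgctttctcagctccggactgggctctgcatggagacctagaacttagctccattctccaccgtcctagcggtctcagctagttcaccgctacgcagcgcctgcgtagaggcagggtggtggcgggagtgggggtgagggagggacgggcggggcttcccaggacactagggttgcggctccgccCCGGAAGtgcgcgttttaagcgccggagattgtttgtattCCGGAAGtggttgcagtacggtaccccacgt
Utp14a: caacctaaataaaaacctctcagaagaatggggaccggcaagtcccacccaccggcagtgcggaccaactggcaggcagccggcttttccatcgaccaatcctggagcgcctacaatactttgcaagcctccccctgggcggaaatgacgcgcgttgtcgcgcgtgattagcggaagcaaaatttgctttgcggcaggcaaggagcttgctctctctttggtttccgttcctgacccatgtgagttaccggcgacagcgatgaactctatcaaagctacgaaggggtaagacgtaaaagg
Imp3: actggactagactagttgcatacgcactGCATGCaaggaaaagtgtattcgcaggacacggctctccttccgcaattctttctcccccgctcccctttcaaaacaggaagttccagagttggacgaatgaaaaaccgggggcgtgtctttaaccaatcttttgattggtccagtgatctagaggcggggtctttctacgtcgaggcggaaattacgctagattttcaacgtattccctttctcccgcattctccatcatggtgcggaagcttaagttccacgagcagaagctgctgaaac
The Utp20 window held an E-box and an NRF1 core, and that of Pwp2 held 2 ETS motifs and no E-box. None of the 3 motifs was found in the Utp14a window, and that of Imp3 held an NRF1 core alone. A CACGTG was present in 13 of 44 member windows (29.5%), against 11.2% of 11664 genes tested with a window; it was in 9 of the 23 windows of members that rose and 4 of the 21 others. CCGGAAG was present in 19 of 44 (43.2%, against 17.9%), in 10 of 23 that rose and 9 of 21 others. GCATGC was present in 9 of 44 (20.5%, against 10.9%), in 7 of 23 and 2 of 21. CCAAT was present in 23 of 44 (52.3%, against 42.9%) and TATAAA in 2 of 44 (4.55%, against 9.5%). These are letter matches in a fixed window, and whether a factor binds there was not measured.

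UTP-A, the module that binds the precursor first, had 4 of 6 members higher and 0 lower. The share higher was 66.7%, where 21.2% of all genes tested rose and 20.0% fell. Utp4 (chromosome 8, 106893636 to 106923088, GRCm38), a WD-repeat scaffold protein of the module, was at 189, 193 and 184 CPM in siRSL24D1 and 148, 145 and 145 CPM in siCtrl. Every siRSL24D1 library exceeded every siCtrl library by far more than the replicates differed, and the log2 fold change was 0.37 (SE 0.04, edgeR adjusted p = 0.000237). Heatr1, the large HEAT-repeat protein of UTP-A, was at 305, 307 and 304 CPM in siRSL24D1 and 252, 249 and 255 CPM in siCtrl, a rise of 0.28 (adjusted p = 0.000549). Nol11, a metazoan member of the module, rose by 0.22, at 153, 156 and 156 CPM in siRSL24D1 and 135, 135 and 129 CPM in siCtrl (adjusted p = 0.00263). Utp15 rose by 0.14 (adjusted p = 0.0204), a call lost after a correction for transcript length (adjusted p = 0.183) and without siRSL24D1 3 or any single siCtrl library (adjusted p = 0.0544 to 0.091). The remaining pair, Wdr43 and Wdr75, was at 0.11 (adjusted p = 0.0794) and 0.03 (adjusted p = 0.494).

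UTP-B, a complex of mostly beta-propeller proteins, had 2 of 6 members higher (33.3%, against 21.2% of all genes tested) and 0 lower. Pwp2, a tandem WD-repeat subunit, was at 102, 117 and 109 CPM in siRSL24D1 and 85.4, 82.3 and 80.0 CPM in siCtrl. Its groups were well apart, siRSL24D1 2 being the highest library, and it rose by 0.40 (SE 0.06, edgeR adjusted p = 0.001). Wdr3, the homologue of yeast Utp12, was at 125, 133 and 135 CPM in siRSL24D1 and 115, 117 and 115 CPM in siCtrl, a rise of 0.18 (adjusted p = 0.01). Tbl3, Utp6 and Utp18, the other beta-propeller and repeat subunits, had log2 fold changes of 0.11, 0.06 and 0.03 and did not pass. Wdr36 was at -0.06 (adjusted p = 0.325), the lowest of the module. Its 3 siRSL24D1 libraries (147, 156 and 146 CPM) overlapped the siCtrl libraries (158, 158 and 152 CPM). Log2 fold changes within this module ran from -0.06 to 0.40.

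Of 5 proteins of the U3 particle and the Mpp10 module, 2 rose and 1 fell, against 21.2% and 20.0% of all genes tested. All 3 that passed the test are members of the Mpp10 complex. Imp4 and Imp3, which with Mphosph10 form the Mpp10 complex and help U3 pair with the precursor, are shown together for that reason. Imp4 was at 90.5, 89.4 and 86.2 CPM in siRSL24D1 and 69.0, 69.1 and 66.6 CPM in siCtrl, a rise of 0.38 (SE 0.04, edgeR adjusted p = 0.000287). Imp3 (chromosome 9, 56937475 to 56938398, GRCm38, plus strand) was at 36.2, 36.2 and 35.2 CPM in siRSL24D1 and 42.5, 44.1 and 40.3 CPM in siCtrl, and fell by 0.24 (SE 0.05, adjusted p = 0.00595). Neither pair of groups overlapped, and both calls held in all 21 alternatives. Mphosph10, the scaffold of the complex, rose by 0.16, at 108, 114 and 116 CPM in siRSL24D1 and 98.6, 104 and 101 CPM in siCtrl (adjusted p = 0.0195). That call was lost without siRSL24D1 3 (adjusted p = 0.0793) or without siCtrl 1 (adjusted p = 0.0813). Rrp9, the U3-specific protein of the snoRNP, was at 0.12 (adjusted p = 0.176) and Utp3, the Sas10 homologue, at 0.04 (adjusted p = 0.633).

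In UTP-C, 1 of 3 members rose (33.3%, against 21.2% of all genes tested) and 0 fell. Nol6, the homologue of yeast Utp22, was at 79.1, 77.1 and 74.4 CPM in siRSL24D1 and 56.2, 56.2 and 64.4 CPM in siCtrl. The groups did not overlap, although siCtrl 3 lay above the other siCtrl libraries, and the log2 fold change was 0.38 (SE 0.06, edgeR adjusted p = 0.00177). Rrp7a and Rrp36 were at 0.14 (adjusted p = 0.0672) and 0.16 (adjusted p = 0.0779). Rrp36 passed under 4 of the 21 alternatives, among them the length correction.

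Of the RNA helicases, which remodel the precursor and release U3, 2 of 5 rose and 0 fell. Among all genes tested 21.2% rose and 20.0% fell. Dhx37, the DEAH-box helicase that dislodges U3 in yeast and human cells, was among the lowest-expressed members, at 29.7, 26.5 and 28.7 CPM in siRSL24D1 and 19.1, 21.0 and 24.9 CPM in siCtrl. Its lowest siRSL24D1 value lay just above its highest siCtrl value, that of siCtrl 3, and it rose by 0.39 (SE 0.10, edgeR adjusted p = 0.0136). Leaving out siRSL24D1 1 (adjusted p = 0.0538) or siCtrl 2 (adjusted p = 0.0503) ended that call. Ddx52, the Rok1 homologue, was at 114, 121 and 117 CPM in siRSL24D1 and 105, 103 and 99.9985 CPM in siCtrl, a rise of 0.19 (adjusted p = 0.00636). Ddx10, the Dbp4 homologue, was at 0.09 (adjusted p = 0.107). Ddx47 and Ddx49, homologues of yeast Rrp3 and Dbp8, were at 0.01 and -0.01, and their groups overlapped.

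Among 4 enzymes and GTPases of the processome, 1 rose and 0 fell, where 21.2% of all genes tested rose and 20.0% fell. Nat10, the acetyltransferase that makes N4-acetylcytidine in 18S rRNA, was at 81.3, 77.6 and 79.4 CPM in siRSL24D1 and 64.4, 63.5 and 67.4 CPM in siCtrl. The libraries of each group lay close together and the groups far apart, at a log2 fold change of 0.29 (SE 0.04, edgeR adjusted p = 0.00127). Rcl1, a cyclase-like protein, was at 0.13 (adjusted p = 0.0922), Emg1, a pseudouridine methyltransferase of 18S rRNA, at 0.10 (adjusted p = 0.145), and Bms1, a GTPase that binds Rcl1, at 0.04 (adjusted p = 0.511). Emg1 passed with the length correction, at 0.185.

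The other processome proteins held both the largest rise and the largest fall. Of 12, 6 rose and 1 fell, where 21.2% of all genes tested rose and 20.0% fell. Utp20, a giant HEAT-repeat protein (chromosome 10, 88746607 to 88826804, GRCm38, minus strand), was at 377, 387 and 394 CPM in siRSL24D1 and 268, 262 and 279 CPM in siCtrl. The gap between the groups was several times the spread within either, and the log2 fold change was 0.52 (SE 0.04, edgeR adjusted p = 7.83e-05). Ngdn, the Lcp5 homologue, was at 59.2, 68.8 and 61.5 CPM in siRSL24D1 and 50.9, 48.6 and 45.6 CPM in siCtrl, a rise of 0.39 (adjusted p = 0.00273). Wdr46, the Utp7 homologue, was at 55.3, 65.2 and 56.2 CPM in siRSL24D1 and 45.0, 45.3 and 45.6 CPM in siCtrl, a rise of 0.38 (adjusted p = 0.00269). In both of these siRSL24D1 2 was the highest library by a wide margin. Noc4l rose by 0.23, Aatf, which binds Ngdn, by 0.19, and Krr1, a KH-domain protein, by 0.17; the calls of Aatf (adjusted p = 0.0881) and Krr1 (adjusted p = 0.0501) were lost without siCtrl 2. Nol10, Esf1 and Nop14, the partner of Noc4l, lay between 0.12 and 0.13 and did not pass, Dcaf13 was at 0.02 and Fcf1, a PIN-domain protein, at -0.01.

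Utp14a went the other way. This X-linked gene (chromosome X, 48256862 to 48282453, GRCm38, plus strand) encodes the protein that activates Dhx37 in yeast and human cells. It was at 142, 144 and 147 CPM in siRSL24D1 and 175, 178 and 172 CPM in siCtrl, with no overlap and little spread, and fell by 0.28 (SE 0.04, edgeR adjusted p = 0.000762); the call held in all 21 alternatives. The table also lists its autosomal retrocopy Utp14b, which lies inside Acsl3 on the same strand. Utp14b was at 101, 97.5 and 108 CPM in siRSL24D1 and 102, 101 and 118 CPM in siCtrl (log2 fold change -0.07, adjusted p = 0.451), while Acsl3 was at -0.28 (adjusted p = 0.00128). How reads shared by these genes were divided is not given in the sources used here, so the Utp14a and Utp14b levels are uncertain to that extent.

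**Figure D3:**
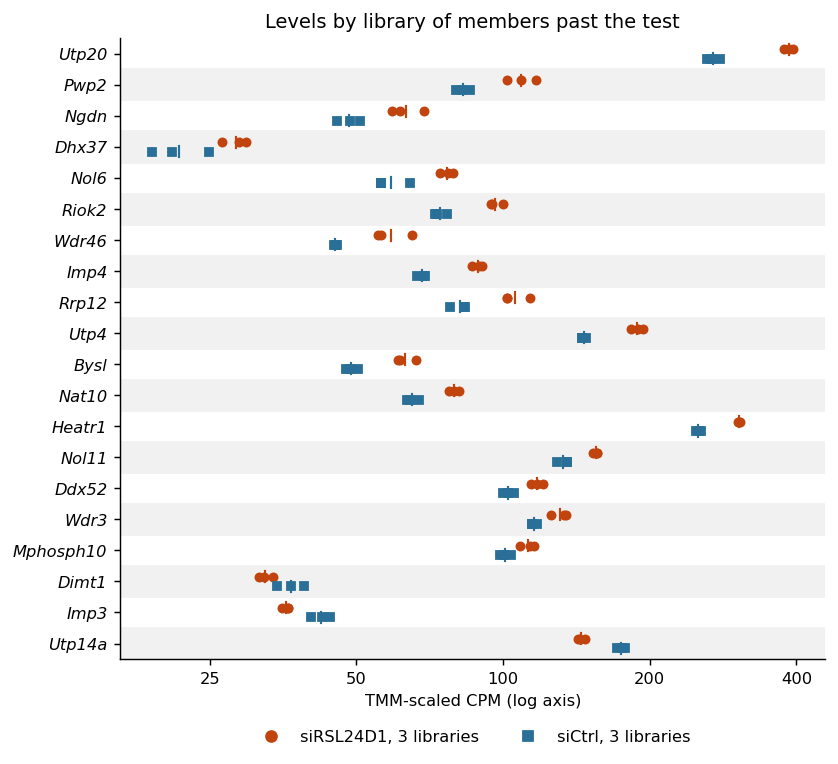
CPM of 20 members that passed the test in each library, on a log axis, ordered by fold change: siRSL24D1 libraries as circles and siCtrl libraries as squares, with a tick at each group mean. From Utp20 (377 to 394 against 262 to 279 CPM) down to Mphosph10 the circles lie to the right; for Dimt1, Imp3 and Utp14a (142 to 147 against 172 to 178 CPM) they lie to the left.

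The late factors, which act on the pre-40S particle during export and in the cytoplasm, had 7 of 11 members higher and 1 lower. These are 63.6% and 9.09%, against 21.2% and 20.0% of all genes tested. Riok2, an atypical kinase needed for the last steps, was at 94.4, 100.2 and 94.9 CPM in siRSL24D1 and 76.6, 72.6 and 73.3 CPM in siCtrl, a rise of 0.38 (SE 0.04, edgeR adjusted p = 0.000387). Rrp12, a HEAT-repeat export factor, was at 102, 114 and 102 CPM in siRSL24D1 and 83.2, 83.4 and 77.9 CPM in siCtrl, a rise of 0.38 (adjusted p = 0.00125). Bysl, the Enp1 homologue, was at 60.9, 66.3 and 61.4 CPM in siRSL24D1 and 50.5, 47.6 and 48.4 CPM in siCtrl (0.36 on the log2 scale, adjusted p = 0.000835). In each of the 3 the groups were separate and siRSL24D1 2 was the highest library. Pno1, a KH-domain protein that binds near the end of 18S rRNA, and Tsr1, a GTPase-like placeholder, both rose by 0.28, the adaptor Ltv1 rose by 0.23 and Nob1, the nuclease that makes the 3-prime end of 18S rRNA, by 0.20. These 7 calls held in all 21 alternatives, and the number of late factors that rose was 7 without any single library.

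Of the 3 RIO kinases Riok2 alone passed the test. Riok1 was at 44.6, 48.6 and 45.6 CPM in siRSL24D1 and 42.9, 44.2 and 40.5 CPM in siCtrl (0.12, adjusted p = 0.105), and Riok3 at 123, 127 and 124 CPM in siRSL24D1 and 128, 124 and 121 CPM in siCtrl (0.01, adjusted p = 0.922). Riok1 libraries were narrowly apart and Riok3 libraries mixed; the difference between the kinases was not tested. Tsr2, a chaperone of the ribosomal protein Rps26, was at 0.17 (adjusted p = 0.0551). Dimt1, which dimethylates adenosines near the end of 18S rRNA, was at 31.6, 32.3 and 33.7 CPM in siRSL24D1 and 36.7, 39.1 and 34.3 CPM in siCtrl. It fell by 0.17 (SE 0.06, edgeR adjusted p = 0.0471) on groups that were barely apart, and the call was lost in 11 of 21 alternatives, among them DESeq2 (adjusted p = 0.0659), limma-voom (0.0502) and leaving out any 1 library other than siCtrl 3 (0.0708 to 0.181).

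By annotation, 22 members share exon bases with a gene on the opposite strand. The 7 with at least 10% shared with another counted gene are given first. The library kit keeps strand, but the strand setting of the counting is not given in the sources used here. The share of annotated exon bases was 32.3% for Tsr1 with Srr, 31.9% for Dimt1 with Kif2a, 37.3% for Tbl3 with Noxo1, 30.3% for Tsr2 with Fgd1, 29.9% for Ddx49 with Homer3, 15.7% for Wdr3 with Spag17 and 12.5% for Rrp7a with Serhl. Srr lay at 11.1 and 10.4 CPM in siRSL24D1 and siCtrl, far below Tsr1 at 281 and 232 CPM. Kif2a, at 58.5 and 54.5 CPM, was more abundant than Dimt1 at 32.5 and 36.7 CPM, and its log2 fold change was 0.10 where that of Dimt1 was -0.17. The Homer3 level was 37.5 and 28.6 CPM, a rise of 0.39 (edgeR adjusted p = 0.00113), beside Ddx49 at 85.4 and 85.7 CPM. Below that cut, Bysl shared 9.37% with Ccnd3. Ccnd3 was at 69.4 and 83.9 CPM, a log2 fold change of -0.27 (edgeR adjusted p = 0.00295), beside Bysl at 62.9 and 48.8 CPM. Utp14a (11.45%) and Riok2 (10.64%) overlapped non-coding genes that were not counted.

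Length and fold change were weakly correlated, by an amount that depended on the measure of length. Across the 52 members Spearman's rho between the log2 fold change and the mean length of the protein-coding transcripts was 0.27, against 0.15 across 15073 genes tested; genes share libraries and are not independent, so these are descriptions. With coding length it was 0.24 among members and 0.10 among 15067 genes, and with the longest transcript 0.17 (0.165) among members and 0.15 (0.146) among all genes. The value for coding length over all genes was 0.06 without siRSL24D1 1 or without siCtrl 1, and 0.16 without siRSL24D1 2 or without siCtrl 3. The 7 members with a coding length of at least 3000 bases (Utp20 and Heatr1 among them) had a median log2 fold change of 0.38, with 6 higher and 0 lower, where 2092 genes of that length had a median of 0.07 and 23.2% rose. The 10 members under 1000 bases had a median of 0.15, with 3 higher and 2 lower, Imp3 and Dimt1, while 4844 genes of that length had a median of -0.01, with 16.9% higher and 21.7% lower. After a loess correction for length 28 members rose and 3 fell, and 24 of the 25 that had risen kept the call. Calls over all genes also increased with that correction, to 3314 higher and 3295 lower, against 3191 and 3021 without it. GC content had a rho of 0.32 with the fold change among members and -0.03 among all genes, and after a GC correction all 25 and 3 calls were kept. The mean level of a member had a rho of -0.11 with its fold change. Members lay on 19 chromosomes, with at most 7 on any of them (chromosome 11).

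**Figure D4:**
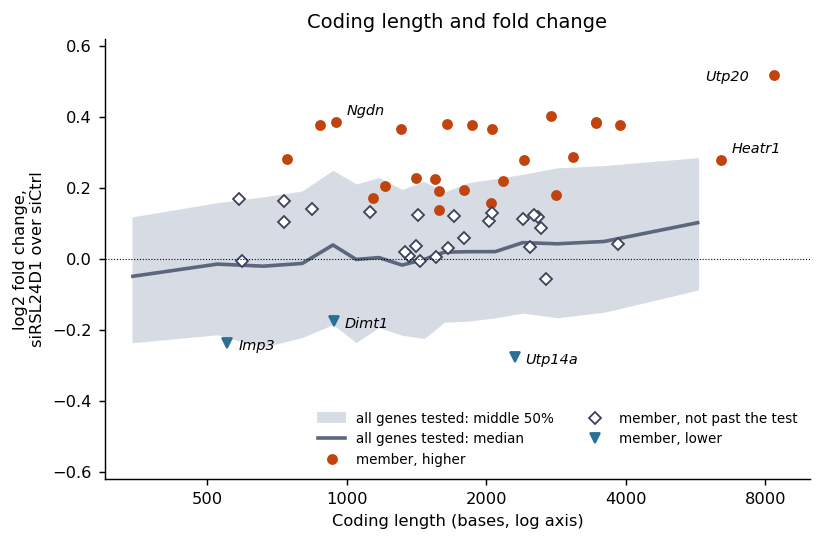
Log2 fold change, siRSL24D1 over siCtrl (vertical axis), against coding length in bases on a log axis; symbols are the 52 members and the line and band are the median and middle 50% of all genes tested in 16 bins of length. All 25 members that rose lie above the line of medians over the range it covers, with Utp20 (8367 bases) at 0.52, and the 3 that fell have 552 (Imp3), 939 (Dimt1) and 2301 (Utp14a) bases.

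Other genes of the 40S pathway, 26 of them outside the member list, had 10 higher and 2 lower at a median of 0.12. These are 38.5% and 7.69%, against 21.2% and 20.0% of all genes tested. Rbm19, an RNA-binding processome protein, was at 74.5, 80.2 and 77.8 CPM in siRSL24D1 and 56.0, 55.9 and 55.5 CPM in siCtrl, a rise of 0.47 (edgeR adjusted p = 0.000132). Eif1ad, a late pre-40S factor, was at 56.4, 66.5 and 60.6 CPM in siRSL24D1 and 48.4, 48.4 and 48.3 CPM in siCtrl, a rise of 0.34 (adjusted p = 0.00325). Neither pair of groups overlapped, but the siRSL24D1 libraries of Eif1ad spanned more than the gap between its groups. Pdcd11, the Rrp5 homologue needed for both subunits, rose by 0.28, and of the 4 box C/D snoRNP proteins that U3 carries, Nop58 rose by 0.25 and Nop56 by 0.20 while the methyltransferase fibrillarin (Fbl) was at -0.04 and Snu13 at 0.04. The lower genes were the kinase genes Csnk1e, at 67.5, 65.3 and 63.1 CPM in siRSL24D1 and 78.0, 81.0 and 73.1 CPM in siCtrl, and Csnk2a1, a catalytic subunit of casein kinase 2, a part of yeast UTP-C, at 375, 385 and 362 CPM in siRSL24D1 and 461, 450.1 and 415 CPM in siCtrl, both at -0.24 (adjusted p = 0.0061 and 0.00589). Of the other casein kinase genes in the list, Csnk1d rose by 0.15 (edgeR adjusted p = 0.0182). Csnk2b, at 0.09, and Csnk2a2, at -0.13, did not pass. Without siRSL24D1 2 and siCtrl 3, 5 of the 26 fell.

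Factors of the 60S branch also rose more often than they fell. Of 51 nucleolar 60S assembly factors, 25 rose (49.0%) and 1, Noc2l, fell (1.96%), at a median of 0.12. Over all genes tested 21.2% rose and 20.0% fell. Nifk, a protein that binds Ki-67, rose most, at 115, 128 and 122 CPM in siRSL24D1 and 90.5, 91.0 and 86.1 CPM in siCtrl (0.45, edgeR adjusted p = 0.000327). The helicase Ddx51 rose by 0.41, at 21.7, 20.3 and 20.4 CPM in siRSL24D1 and 13.6, 15.4 and 18.0 CPM in siCtrl (adjusted p = 0.0112). Noc2l was at 124, 124 and 117 CPM in siRSL24D1 and 142, 140.0 and 133 CPM in siCtrl (-0.19, adjusted p = 0.0103). None of these 3 overlapped between the groups. Leaving out siCtrl 2 gave 16 rises and 0 falls, leaving out siCtrl 3 gave 5 falls, siRSL24D1 2 gave 2, and both of these together gave 8. Transcripts of the small subunit ribosomal proteins were lower: 0 of 32 rose and 25 fell, at a median of -0.21. The share that fell was 78.1%, against 20.0% of all genes tested. Rps20 was at 1138, 1216 and 1140.1 CPM in siRSL24D1 and 1501, 1532 and 1380.1 CPM in siCtrl, a fall of 0.34 (edgeR adjusted p = 0.00166), and Fau was at 538, 580.2 and 506 CPM in siRSL24D1 and 698, 709 and 591 CPM in siCtrl (-0.30, adjusted p = 0.0165). The number of ribosomal protein genes that fell ranged from 6 to 31 when 1 library was left out: it was 6 without siCtrl 2, 8 without siCtrl 1 or siRSL24D1 3 and 9 without siRSL24D1 1, while 21 to 25 members of the 40S assembly list rose in the same runs. No test of the difference between lists was made.

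**Figure D5:**
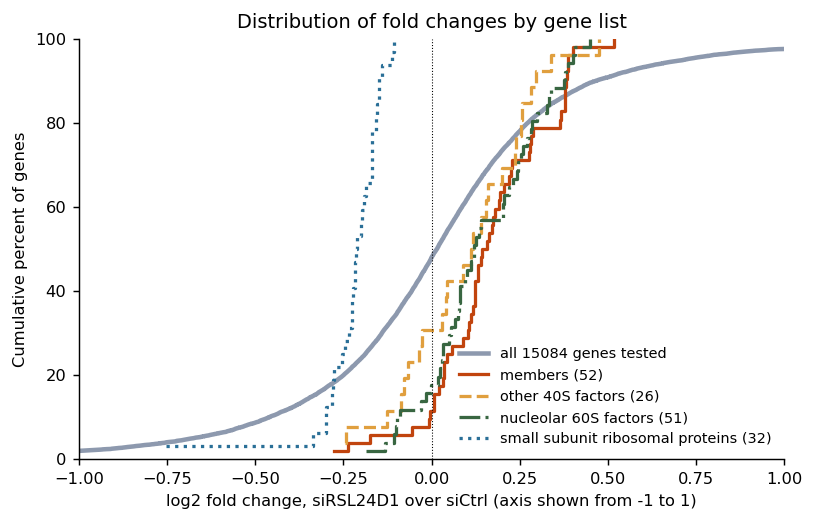
Cumulative percent of genes (vertical axis) up to a given log2 fold change, siRSL24D1 over siCtrl (horizontal axis, shown from -1 to 1), for the 52 members, 26 other 40S factors, 51 nucleolar 60S factors, 32 small subunit ribosomal proteins and all 15084 genes tested. The assembly factor curves cross their midpoint at 0.15, 0.12 and 0.12, to the right of all genes at 0.02, and the ribosomal protein curve crosses at -0.21.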

How the data were processed

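The 3 siRSL24D1 and 3 siCtrl libraries hold ribosomal RNA-depleted total RNA of CGR8 cells. The authors deposited estimated counts per gene symbol, not scaled between libraries, and 21.59% to 22.65% of the entries per library were not whole (tolerance 1e-09). Per the submitters' processing notes, STAR 2.7.0f, Salmon 0.14.1 and GRCm38 were used; for their roles, the annotation and the strand setting, the labels are silent. The tests had been planned for counts, so the values were rounded. Low genes were removed by filterByExpr (10 counts at least, total at least 15), and the rest were scaled by TMM and compared by the quasi-likelihood test of edgeR 4.0.16 in R 4.3.3 (two-sided, no covariate, Benjamini-Hochberg over 15084 genes); common biological variation was 7.48%. The fit was tested on simulated data. SE is the log2 fold change divided by the root of its F statistic.

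The members and lists were chosen with earlier results of these data known. Per-library values are given for Rsl24d1, the 3 called members of each role group with the largest change and groups that did not overlap, each member that fell, and the leading 2 called genes of each other list in each direction. Wdr36, Riok1, Riok3, Utp14b, Acsl3, Krt7, Krt8, Cdx2, Pdcd11, Nop56, Nop58, Fbl, Snu13, Csnk1d, Csnk2b, Csnk2a2 and the overlapping genes were chosen after their values were seen. Lengths, positions and exon overlaps came from GENCODE M21 (GRCm38) and promoters from RefSeq (GRCm38.p6). Alternatives were other scalings and filters, DESeq2 1.42.0, limma-voom (limma 3.58.1), a replicate block, length and GC corrections, a threshold of 0.01, leaving out libraries, and values not rounded. Estimated counts carry assignment error beyond counting error, and the depth limits the precision of low genes most.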

Additional observations from a re-analysis of the deposited data

How the results depend on the processing

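Over 21 alternatives, 18 of the 25 members that rose and 2 of the 3 that fell kept their call in all, 13 members gained one in at least 1, and 11 never passed. With each library left out in turn, 21 to 25 members rose, 2 to 3 fell, the median ran from 0.123 to 0.169, 2210 to 3356 of all genes rose, 2147 to 3285 fell, 16 to 21 nucleolar 60S factors rose and 0 to 5 fell, and 6 to 31 small subunit ribosomal protein genes fell. With library totals 33 members rose, as did 3582 of all genes, and 2741 of all genes fell. At an adjusted p under 0.01, 18 members rose and 2 fell, 1886 of all genes rose and 1867 fell, 14 nucleolar 60S factors rose and 0 fell, and 6 ribosomal protein genes fell. Exactly 2 nucleolar 60S factors fell under DESeq2 size factors, upper-quartile scaling, the filter of at least 1 CPM, limma-voom, and length correction with the replicate block. Without siRSL24D1 2 and siCtrl 3 together, 5 members, 5 other 40S factors and 8 nucleolar 60S factors fell, as did 4008 of all genes; the cause was not tested.

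With the replicate block 27 members rose and 2 fell, with all 25 rises and 2 of the 3 falls kept. Over all genes 3327 rose and 3104 fell with the block, against 3191 and 3021 without it. Deviations from the group mean of same-numbered libraries correlated at -0.22, 0.14 and 0.17, and not every library correlated best with its own number. With 3 libraries a group, these values cannot decide whether equal numbers mark a shared batch.

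Some members that did not pass changed sign, at an adjusted p of at least 0.154 in each case; most were near 0, but Rrp9 and Tbl3 were at 0.12 and 0.11 with all libraries. With DESeq2 size factors and with the DESeq2 test Ddx47 was at -0.004 and Riok3 at -0.005. With library totals Ddx49 was at 0.018 and Fcf1 at 0.017. With upper-quartile scaling Ddx47 was at -0.021, Dcaf13 at -0.009 and Riok3 at -0.022, and with no filter Riok3 was at -0.0. With the length correction Bms1 was at -0.012 (-0.014 with the block), Fcf1 at 0.071 (0.072 with the block) and Riok3 at -0.001 in both. With the GC correction Ddx47 was at -0.004 (-0.003 with the block) and Dcaf13 at -0.008 in both. With 1 library left out, Fcf1 ran from -0.092 to 0.034, Ddx49 from -0.069 to 0.027, Ddx47 from -0.035 to 0.039, Dcaf13 from -0.032 to 0.05, Riok3 from -0.027 to 0.027, Bms1 from -0.004 to 0.073 and Utp3 from -0.014 to 0.067. Without siRSL24D1 2 and siCtrl 3 together, Wdr75 was at -0.008, Tbl3 at -0.004, Utp18 at -0.015, Rrp9 at -0.008, Utp3 at -0.066, Ddx47 at -0.057, Bms1 at -0.033, Dcaf13 at -0.075 and Riok3 at -0.046.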
